A study of Mus musculus with 3 samples.

Results

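The 9 genes described here encode secreted or shed cytokines and growth factors that endothelial cells (ECs) can release: the colony-stimulating factors Csf2, Csf1 and Csf3, the interleukin-6 family members Il6 and Lif, the EGF family ligands Hbegf and Areg, and the platelet-derived growth factor chains Pdgfa and Pdgfb. They were taken by symbol, 9 of the 32285 genes in the count matrices, and read in endothelial barcodes of mouse lung. A barcode stands for a droplet and was called endothelial when it held 1000 to 5000 detected genes, under 20% mitochondrial UMIs and at least 2 UMIs of Pecam1 and Cdh5 together. UMIs, random tags added at capture, let each RNA molecule be counted once. In all 3 libraries, 31092 of 31947 barcodes within the limits on genes and mitochondrial UMIs (97.3%) were endothelial. Csf2, Hbegf and Pdgfa were chosen by their measured UMI level in a rare population of the 6 h library, so their levels and co-detection at 6 h are given as a description.

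Single-cell RNA sequencing of 3′ ends was performed on lungs of wild-type C57BL/6 mice, young adult males per the study's methods, with 1 library per group. Control mice received PBS through the tail vein and were taken after 6 h. The other mice received 200000 B16-F10 cells, a mouse skin melanoma line, in 100 µl of PBS and were taken after 6 h (6 h library) or 30 h (30 h library). From digested lungs, Pecam1-positive cells without Ptprc were collected by flow sorting, and the label of the 6 h library names melanoma cells beside the ECs. The number of mice behind each library is 2 in the labels and larger in the study's text. No PBS library was taken at 30 h, so the control of the 30 h library is the PBS library at 6 h. Replicate error cannot be given, since each group is a single library. All intervals below are exact 95% intervals for counting error only, and no difference between libraries was tested.

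Colony-stimulating factors drive the growth, survival and activation of myeloid cells: GM-CSF (Csf2) acts on granulocytes, macrophages and dendritic cells, M-CSF (Csf1) on monocytes and macrophages, and G-CSF (Csf3) on neutrophils. Il6 and Lif signal through receptors that share gp130 (Il6st). HB-EGF (Hbegf) and amphiregulin (Areg) are made as membrane-bound precursors and released by sheddases to activate EGF receptors, and the PDGF-A and PDGF-B chains (Pdgfa, Pdgfb) recruit fibroblasts, myofibroblasts and pericytes through Pdgfra and Pdgfrb.

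The control, 6 h and 30 h libraries held 11231, 10583 and 9278 endothelial barcodes with 90853430, 87340328 and 81485079 UMIs, and the median barcode had 7782, 8033 and 8676 UMIs. Levels are UMIs per 1000000 endothelial UMIs (CPM). A gene with 3 UMIs would stand at 0.0330, 0.0344 and 0.0368 CPM in the 3 libraries. The exact upper limit of a gene with 0 UMIs is somewhat higher, at 0.0406 CPM in the control. Scrublet, a doublet caller, marked 9.41%, 8.86% and 7.66% of endothelial barcodes as likely doublets, which were kept. At least 2 UMIs from the marker list of a non-endothelial cell type were found in 32.8%, 38.7% and 32.6% of endothelial barcodes, platelet markers in 9.30%, 11.9% and 13.2% and leukocyte markers in 6.98%, 9.27% and 6.92%. The libraries shared 22 to 38 barcode sequences in pairs, and none of the shared barcodes held Csf2 in either library. In the 6 h library, the 227 barcodes with 1 UMI of Pecam1 and Cdh5, just outside the limit, held 4 Csf2 UMIs, 23 Areg UMIs, 35.4 CPM of Hbegf, 78.5 of Pdgfa, 36.7 of Csf1 and 62.0 of Pdgfb. The 251 barcodes with 2, just inside it, held 5 Csf2 UMIs, no Areg, 36.3 CPM of Hbegf, 59.1 of Pdgfa, 63.2 of Csf1 and 136 of Pdgfb.

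On GRCm38, with GENCODE M21 positions, Csf2 lies at chr11:54247271-54249667, Lif at chr11:4257557-4272514 and Csf3 at chr11:98701263-98703629. Il6 lies at chr5:30013114-30019981, Areg at chr5:91139599-91148432 and Pdgfa at chr5:138976014-138997370. Csf1 lies at chr3:107741048-107760469 and Pdgfb at chr15:79995874-80014977. All are protein-coding, as is Hbegf. Csf2, Pdgfa and Pdgfb each overlap an annotated antisense gene, and reads of such pairs can be separated only by strand. A RefSeq table of promoters (GRCm38.p6) matched 6 of the 9 members, and its windows of 250 bases before to 50 bases after the start were searched on both strands for an AP-1 site (TGANTCA), a cAMP response element (TGACGTCA) and an NF-kB site. AP-1 and NF-kB factors are known to act at the promoters of many cytokine genes, so the 250 bases before the start are shown for the GM-CSF gene and for those with an AP-1 or NF-kB match, with matches in capitals, 5′ to 3′ on the strand of the gene. The sequences cover chr11:54249900-54250149 (minus strand, Csf2), chr11:4257318-4257567 (plus, Lif), chr3:107760470-107760719 (minus, Csf1) and chr5:30012864-30013113 (plus, Il6).
Csf2: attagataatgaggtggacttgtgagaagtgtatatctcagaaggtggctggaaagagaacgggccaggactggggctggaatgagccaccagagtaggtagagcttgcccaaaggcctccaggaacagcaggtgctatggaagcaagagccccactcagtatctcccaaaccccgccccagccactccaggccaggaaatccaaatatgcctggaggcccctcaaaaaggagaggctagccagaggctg
Lif: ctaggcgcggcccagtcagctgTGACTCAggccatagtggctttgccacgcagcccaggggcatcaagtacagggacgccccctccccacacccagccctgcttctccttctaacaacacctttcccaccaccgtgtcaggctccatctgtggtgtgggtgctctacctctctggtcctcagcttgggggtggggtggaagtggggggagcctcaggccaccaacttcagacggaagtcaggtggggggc
Csf1: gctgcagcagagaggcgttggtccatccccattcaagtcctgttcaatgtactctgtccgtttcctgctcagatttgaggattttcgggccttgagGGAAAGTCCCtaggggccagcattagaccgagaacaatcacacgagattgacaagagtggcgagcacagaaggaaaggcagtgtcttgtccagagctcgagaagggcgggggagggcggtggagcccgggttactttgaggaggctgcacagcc
Il6: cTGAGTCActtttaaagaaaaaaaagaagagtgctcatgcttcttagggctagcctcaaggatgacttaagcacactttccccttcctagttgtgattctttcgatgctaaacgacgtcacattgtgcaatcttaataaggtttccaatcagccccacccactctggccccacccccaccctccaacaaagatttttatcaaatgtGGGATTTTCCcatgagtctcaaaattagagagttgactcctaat
Lif held an AP-1 match 228 bases before its start, Csf1 an NF-kB match at 154 bases, and Il6 an AP-1 match at the far end of the window and an NF-kB match at 44 bases. The Areg window held a cAMP response element 61 bases before the start and is not shown. Of 32851 windows in the table, 7.81% held the AP-1 site, 1.79% the cAMP response element and 4.51% the NF-kB site. The Csf2 window held none of the 3, but its RefSeq start lies 232 bases upstream of the GENCODE start, so the bases next to the GENCODE start were not searched. The 2 Pdgfa windows held none either, and both lie inside the GENCODE gene rather than at its start. Csf3, Hbegf and Pdgfb had no entry.

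At 6 h, the GM-CSF gene was 13.8-fold above the control library and the leukemia inhibitory factor gene 7.51-fold, while Pdgfa and Hbegf stood at 2.52-fold and 2.02-fold. Csf1 (1.28-fold) and Pdgfb (1.12-fold) differed less. At 30 h, Lif, Pdgfa and Hbegf stood close to the control, Csf2 and Csf1 below it, and Pdgfb at its highest level of the 3 libraries. Of the 9 members, 5 had at least 100 endothelial UMIs over the 3 libraries, the minimum used for counts of genes past a 1.5-fold difference, and Csf3, Il6, Lif and Areg did not. Among those 5, Csf2, Hbegf and Pdgfa were higher by more than 1.5-fold at 6 h and none was lower, beside 4.43% higher and 3.66% lower of all 14823 genes with such counts. The choice of the 3 genes used this contrast, so nothing is read from the count. At 30 h against the control, none of the 5 was higher and Csf2 and Csf1 were lower by more than 1.5-fold, beside 8.99% higher and 7.86% lower of all genes. Csf2 met the minimum only through the 823 UMIs of the 6 h library (62 in the control, 4 at 30 h). Nothing is therefore read from this count. Set against the 6 h library, Csf2, Csf1, Hbegf and Pdgfa were lower at 30 h and none was higher, beside 8.3% lower and 9.69% higher of all genes. The choice of members used the 6 h level, so nothing is read from this count either. The median log2 ratio of all these genes against the control was −0.02 at 6 h and −0.05 at 30 h.

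**Figure D1:**
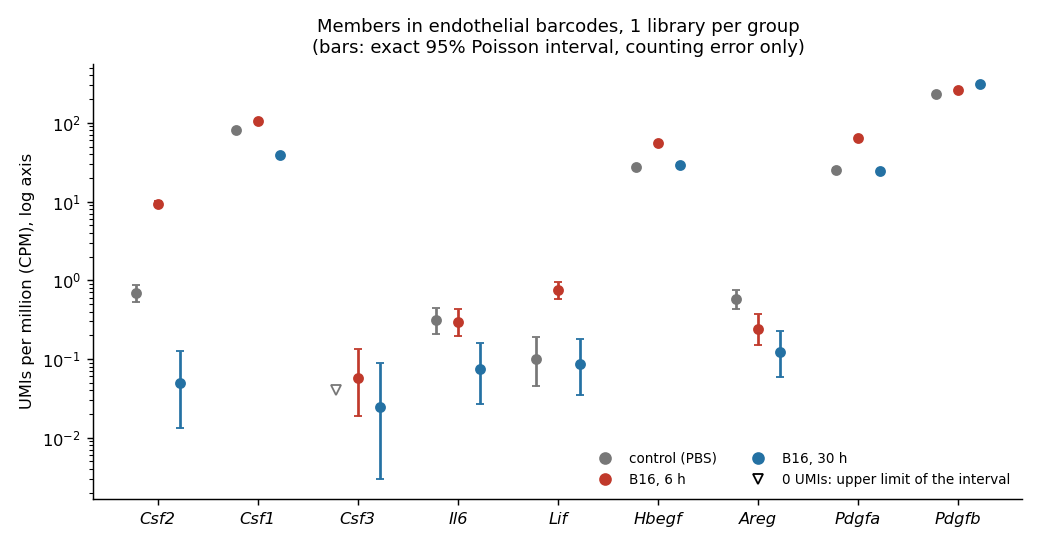
Level of each member in endothelial barcodes (CPM, log axis) in the control, 6 h and 30 h libraries, 1 library per group; bars are exact 95% Poisson intervals for counting error and the open triangle is the upper limit of a gene with 0 UMIs. Csf2 stands at 0.682, 9.42 and 0.0491 CPM, and Pdgfb at 231, 259 and 312 CPM.

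Csf2 counted 62, 823 and 4 UMIs in the control, 6 h and 30 h libraries, or 0.682 (0.523 to 0.875), 9.42 (8.79 to 10.1) and 0.0491 (0.0134 to 0.126) CPM. The 6 h value stood above both others, which follows from the choice of Csf2 by its 6 h level. The variance of Csf2 UMIs per barcode was 21.3 times their mean in the control and 37.4 times at 6 h. Poisson intervals assume that variance and mean are equal, so those of Csf2 are too narrow. In the control, 50 of the 62 UMIs came from 2 barcodes, with 28 and 22 UMIs, and 7 more from a barcode of an epithelial cluster with 466 UMIs of epithelial markers. When barcodes with RNA of other cell types were left out, the control kept 1 Csf2 UMI, the 6 h library 432 and the 30 h library 4, so the control level, and with it the direction at 30 h, rests on a few barcodes. The barcode with 28 Csf2 UMIs was left out for 2 leukocyte marker UMIs among 9248. That with 22 was left out for 3 lymphoid marker UMIs among 20976. Csf2 UMIs were seen in 8, 108 and 3 endothelial barcodes, or 0.0712%, 1.02% (0.838% to 1.23%) and 0.0323%. In the 345 other barcodes of the 6 h library within the same limits, 3 (0.870%) held Csf2 at a median of 2632 UMIs, so the endothelial share with any Csf2 UMI does not by itself stand apart from theirs. Of these 3 barcodes, 2 were among 6 epithelial ones. Droplets with 1 to 100 UMIs in all, taken as empty, held 14.5 CPM of Csf2 (10.5 to 19.6) at 6 h and none in the control. The endothelial Csf2 UMIs at 6 h were concentrated: 60 of the 108 barcodes held exactly 1, while 32 barcodes with at least 5 held 87.5% of all Csf2 UMIs and 21 with at least 10 held 78.7%.

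Csf1 was spread over many more cells. It counted 7389, 9100 and 3152 UMIs, or 81.3 (79.5 to 83.2), 104 (102 to 106) and 38.7 (37.3 to 40.1) CPM, and the 3 intervals do not overlap. The 30 h library stood at 0.476 times the control (0.456 to 0.496) and 0.371 times the 6 h library. Csf1 was seen in 38.4%, 44.0% and 23.2% of endothelial barcodes and in 9.09%, 10.4% and 6.38% of the other barcodes. After thinning each barcode to 2000 UMIs, which left out 195, 197 and 111 shallower endothelial barcodes, the endothelial shares were 13.8%, 16.6% and 6.83%. Csf3 was at the edge of detection, with 0 UMIs in the control (a share of up to 0.0328% of barcodes), 5 UMIs in 2 barcodes at 6 h and 2 UMIs in 2 barcodes at 30 h. Both 6 h barcodes with Csf3 also held Lif, Csf1, Hbegf and Pdgfa, and neither held Csf2.

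Of the interleukin-6 family, Il6 counted 28, 26 and 6 UMIs in 12, 11 and 4 barcodes, and the ratio of the 6 h library to the control was 0.966 (0.544 to 1.71). At 30 h its level was 0.239 times the control (0.0809 to 0.588; log2 ratio −2.07), which moved to a log2 ratio of −0.32 with at least 300 genes and −0.19 in gCap-like cells. Vein-like cells held 16 of the 28 control UMIs, in 4 barcodes, and 9 of the 26 at 6 h, also in 4. Lif counted 9, 65 and 7 UMIs in 8, 44 and 7 barcodes, or 0.0991 (0.0453 to 0.188), 0.744 (0.574 to 0.949) and 0.0859 (0.0345 to 0.177) CPM. Only the 6 h interval stands apart from the other 2, and 1 barcode held at most 4 Lif UMIs. At 6 h, Lif was seen in 3 of the 345 other barcodes (0.870%) and in 0.416% of ECs, so its endothelial share did not exceed theirs.

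Hbegf (chr18:36504927-36515805) counted 2494, 4840 and 2401 UMIs, or 27.5 (26.4 to 28.6), 55.4 (53.9 to 57.0) and 29.5 (28.3 to 30.7) CPM. The 6 h value lay far above the others, and the 30 h value was 1.07 times the control (1.01 to 1.14), a direction that turned with the limits on detected genes (log2 ratio −0.00699 when barcodes with 300 or more genes were taken, however many). Hbegf was seen in 15.1%, 19.7% and 17.5% of endothelial barcodes. In lymphatic EC-like barcodes of the 6 h library, which are of like depth (median 7924 UMIs), 1 of 54 (1.85%) held Hbegf. At 6 h more of its UMIs sat in the barcodes richest in it: the 1% of barcodes with the most Hbegf UMIs held 20.3%, 37.7% and 16.9% of its UMIs in the 3 libraries. Thinned to 2000 UMIs per barcode, 6.91% of endothelial and 5.74% (3.31% to 9.15%) of the other barcodes held Hbegf at 6 h, and the other barcodes included 68 mesenchymal ones with 83.2 CPM of Hbegf. In the control the order was the other way, at 4.84% and 8.45%, and at 30 h the thinned shares were 5.49% and 4.39%. Areg, which shares the EGF receptor with Hbegf, was rare in ECs, with 53, 21 and 10 UMIs in 22, 19 and 5 barcodes. Its 6 h level was 0.412 times the control (0.236 to 0.695), but 21 of the 53 control UMIs came from a single barcode of an epithelial cluster. Without barcodes holding RNA of other cell types, 12 and 11 Areg UMIs remained, at 0.212 and 0.222 CPM. In the 6 epithelial barcodes outside the endothelial set at 6 h, Areg reached 26 UMIs.

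Pdgfa counted 2303, 5584 and 1975 UMIs, or 25.4 (24.3 to 26.4), 63.9 (62.3 to 65.6) and 24.2 (23.2 to 25.3) CPM. The 6 h library again stood alone, and the control and 30 h values overlapped. Pdgfa was seen in 15.3%, 22.7% and 15.2% of endothelial barcodes, beside 13.5%, 13.9% and 16.2% of the other, shallower barcodes. After the same thinning as for Hbegf, the endothelial shares were 4.68%, 8.32% and 4.40%. Those of the other barcodes were then higher in each library, at 7.51%, 9.68% and 10.7%. Only at 30 h did the intervals not overlap (3.99% to 4.84% and 6.85% to 15.8%). The top 1% of endothelial barcodes held 17.9%, 41.8% and 19.5% of the Pdgfa UMIs. Its level in empty droplets was 26.5, 58.1 and 25.5 CPM, close to that of the endothelial barcodes in each library. In the 6 h library, 17 non-endothelial barcodes with at least 4 melanoma markers held 30 Pdgfa UMIs, 1 Hbegf UMI and no Csf2. Pdgfb, the chain by which ECs attract pericytes, showed another pattern. It counted 20942, 22599 and 25448 UMIs, or 231 (227 to 234), 259 (255 to 262) and 312 (309 to 316) CPM, and was seen in 66.7%, 70.4% and 74.5% of endothelial barcodes against 17.5%, 15.7% and 18.3% of the others. The 30 h library was 1.36 times the control (1.33 to 1.38), below the 1.5-fold limit. Per barcode, Pdgfb UMIs were evenly spread, with 7.12% of them in the top 1% of barcodes at 6 h.

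All barcodes within the limits were clustered without the members and other listed response genes among the variable genes. Of the resulting 37 clusters, the UMIs of Csf2, Hbegf and Pdgfa at 6 h fell heavily into a single small cluster, led by Csf2, Tubb6, Inhbb, Pdgfa, Myc, Fosl1, Noct, Tuba1c and Hbegf. It scored below 0 for all 5 endothelial classes, −0.80 for general capillary (gCap) and −0.30 for artery, and stayed unnamed. It was singled out because Csf2 came first among its leading genes, and it is called the Csf2-led cluster. It held 9, 273 and 39 endothelial barcodes in the control, 6 h and 30 h libraries, or 0.0801%, 2.58% and 0.420%. At 6 h, 100% of its barcodes held Cdh5 and 95.2% Pecam1, and Scrublet marked 11.0% of them. Other genes of the same cells defined this cluster, so the values inside it are a description.

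In the 6 h library the cluster held 93.6% of the endothelial Csf2 UMIs, 60.0% of Lif, 44.1% of Pdgfa and 39.6% of Hbegf, all 5 Csf3 UMIs, and 2.58% of the barcodes. Its shares of Csf1 (9.10%) and Pdgfb (5.59%) were smaller, it had 3 of 26 Il6 UMIs, and it held no Areg. Inside and outside the cluster, Csf2 stood at 311 and 0.624 CPM, Pdgfa at 995 and 36.8 CPM, and Hbegf at 776 and 34.4 CPM. Lif stood at 15.8 and 0.306 CPM, Csf1 at 335 and 97.5 CPM, and Pdgfb at 511 and 251 CPM. The genes differed in how many barcodes of the cluster carried them: Pdgfa was found in 209 of 273 (76.6%), Hbegf in 199 (72.9%), Csf1 in 62.3%, Csf2 in 63 (23.1%) and Lif in 24 (8.79%). Hbegf had a median of 3 UMIs and reached 64, Pdgfa a median of 2 and reached 93, whereas Csf2 was 0 in 210 barcodes and reached 79. Outside the cluster no barcode held more than 3 Csf2, 16 Hbegf or 18 Pdgfa UMIs.

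**Figure D2:**
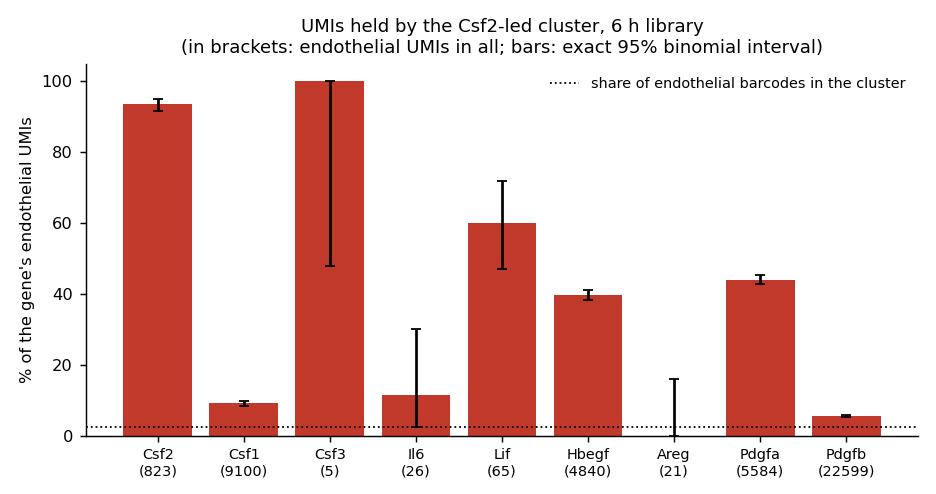
Share of each member's endothelial UMIs that lay in the Csf2-led cluster of the 6 h library, in percent, with exact 95% binomial intervals and each gene's endothelial UMIs in brackets; the dotted line is the cluster's share of endothelial barcodes (2.58%). Csf2 (93.6%), Lif (60.0%), Pdgfa (44.1%) and Hbegf (39.6%) stand far above the line, and Areg is at 0.

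The differences between the 6 h library and the control were smaller without this cluster. This follows from its choice, since it was picked for Csf2 and came mostly from the 6 h library, so the values are a description. Csf2 was then 4.72-fold higher (log2 ratio 2.24, 1.32 to 3.28; 53 against 12 UMIs, 9 of these 12 in barcodes of an epithelial cluster), Lif 3.48-fold, Pdgfa 1.46-fold (log2 ratio 0.54, 0.47 to 0.62) and Hbegf 1.26-fold (0.33, 0.25 to 0.41), so that Pdgfa and Hbegf no longer passed 1.5-fold. Csf1 (1.21-fold) and Pdgfb (1.09-fold) moved little. The 9 control barcodes of the cluster held 50 Csf2 UMIs in 2 barcodes, 11 Hbegf UMIs in 3 and 11 Pdgfa UMIs in 5. The 39 barcodes at 30 h held 2 Csf2 UMIs in 1 barcode, 46 Hbegf UMIs in 17 and 71 Pdgfa UMIs in 21. Inhbb, the activin B subunit, was seen in 71.8% of the 6 h barcodes of this cluster, which held 48.7% of its endothelial UMIs. Bcl3 was in 62.6% of barcodes inside and 31.5% outside it, and Pim3 in 49.8% and 49.2%.

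The detection of Csf2, Hbegf and Pdgfa was followed barcode by barcode. The 3 genes were chosen by their level in a rare population of the 6 h library. Joint detection above the expected number follows from that choice, so the values are a description. Of the 108 endothelial barcodes with Csf2 at 6 h, 66 (61.1%) also held Hbegf and 67 (62.0%) Pdgfa, against 19.3% and 22.2% of barcodes without Csf2. All 3 genes were found in 53 barcodes, 49.1% of those with Csf2 but 2.54% of those with Hbegf. Csf2 occurred alone in 28 barcodes, with Pdgfa only in 14 and with Hbegf only in 13. Hbegf and Pdgfa without Csf2 were found together in 609 barcodes, and 6734 barcodes (63.6%) held none of the 3. The control had 2 barcodes with all 3 genes, 1 of them in an epithelial cluster, and the 30 h library none.

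The overlap was closest where Csf2 was abundant. All 21 barcodes with at least 10 Csf2 UMIs held Hbegf, at 1 to 48 UMIs with a median of 10, and 20 held Pdgfa, at a median of 14 and up to 72 UMIs. Of the same 21, 20 held Csf1 and 4 Lif, and all 21 lay in the Csf2-led cluster. The barcode with the most Csf2 had 79 UMIs of it, 8 of Hbegf, 10 of Pdgfa and 11 of Csf1 among 13340. By contrast, the 60 barcodes with 1 Csf2 UMI held Hbegf in 40.0% and Pdgfa in 45.0%, and 20 of them lay in the cluster. Hbegf stood at 48.5 CPM in barcodes without Csf2, 340 with 1 Csf2 UMI, 775 with 2 to 4, 609 with 5 to 9 and 1387 with at least 10. Pdgfa stood at 53.9, 411, 1324, 993 and 1932 CPM in the same steps. The control barcode with 28 Csf2 UMIs held neither Hbegf nor Pdgfa, and that with 22 held 5 and 2 UMIs of them.

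**Figure D3:**
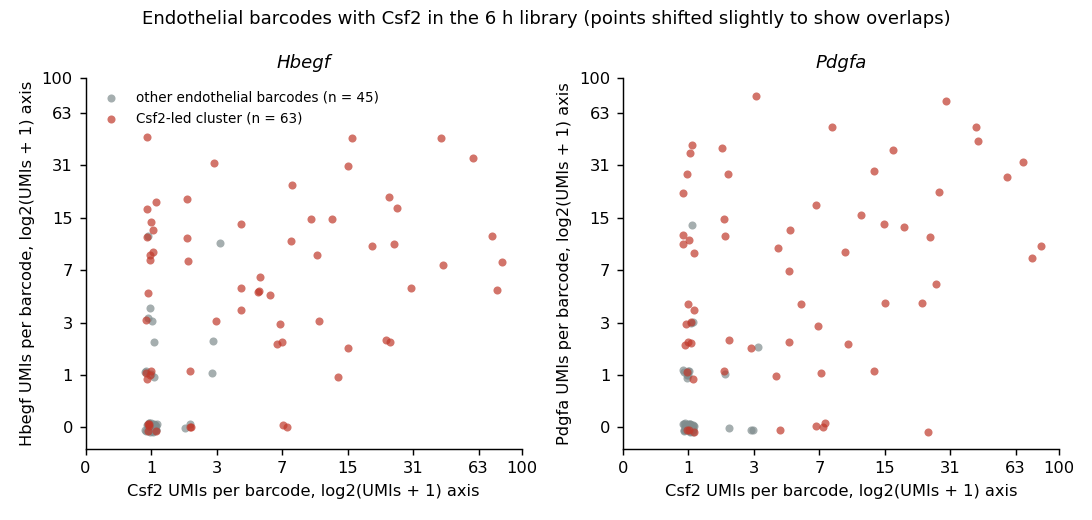
Each of the 108 endothelial barcodes with Csf2 in the 6 h library, by its Csf2 UMIs (x) and its Hbegf or Pdgfa UMIs (y), both on log2(UMIs + 1) axes with points shifted slightly; red barcodes lie in the Csf2-led cluster (n = 63) and grey ones elsewhere (n = 45). All barcodes with at least 5 Csf2 UMIs are red, and those with at least 10 all lie above 0 for Hbegf.

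Deeper barcodes detect every gene more often, so each count was set against the number expected if the genes were detected independently within 10 bins of total UMIs. The 53 barcodes with all 3 genes compare with 6.28 expected, a ratio of 8.43 (6.32 to 11.0). For pairs, Csf2 and Hbegf were found together in 2.86 times the expected number of barcodes (2.21 to 3.63), Csf2 and Pdgfa in 2.54 times (1.97 to 3.23), and Hbegf and Pdgfa in 1.26 times (1.16 to 1.36). Lif went with them: it shared 11 barcodes with Csf2, where 0.542 were expected (ratio 20.3, 10.1 to 36.3), and its ratios with Hbegf and Pdgfa were 3.21 and 2.23. Csf1 shared 78 barcodes with Csf2 (1.57, 1.24 to 1.96) and was near 1 with Hbegf (1.11, 1.04 to 1.18). Pdgfb was close to 1 with each of them, at 1.07 with Csf2 and 1.00 with Pdgfa. Since Pdgfb was seen in 70.4% of barcodes, its ratios could not have risen far above 1. Il6 and Areg were not found in a barcode with Csf2 at 6 h, where 0.145 and 0.179 were expected, so that these counts show nothing at this depth. In the control and at 30 h, the ratio of Hbegf with Pdgfa was 1.18 (1.06 to 1.31) and 1.09 (0.968 to 1.22).

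Within the Csf2-led cluster and within gCap-like cells, the ratios of Csf2, Hbegf and Pdgfa had intervals that include 1. Only barcodes with Csf2 can hold it with another gene, so the Poisson intervals of its ratios are wider than the counts allow. The number of such barcodes also caps the ratio. For all 3 genes the cap is far lower inside the cluster (63 with Csf2, 37.1 expected) than over all barcodes (108 and 6.28). Independence inside the cluster was not tested. Of its 63 barcodes with Csf2, 48 held both other genes, against 115 of the 210 without Csf2. In the 273 barcodes of the Csf2-led cluster, 48 (17.6%) held all 3 genes where 37.1 were expected (ratio 1.29, 0.954 to 1.72), 115 held Hbegf and Pdgfa without Csf2, and 26 held none of the 3. The ratio of Csf2 with Hbegf was 1.14 (0.858 to 1.49) there, and that of Csf2 with Pdgfa 1.13. In gCap-like cells the ratios were 0.859 for Csf2 with Hbegf, 0.823 for Csf2 with Pdgfa and 1.02 for Hbegf with Pdgfa, and no barcode held all 3, where 1.54 were expected. Over all ECs outside the cluster, 5 barcodes held all 3 genes (2.33 expected). Of the 53 barcodes, 48 lay in the cluster, 3 in mixed clusters and 1 each in an aCap-like and a low-UMI cluster.

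**Figure D4:**
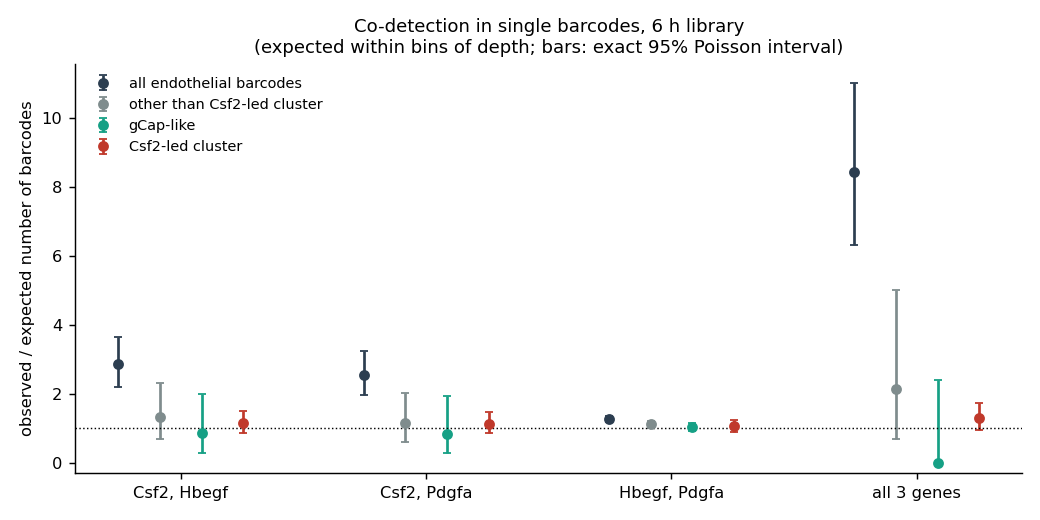
Observed over expected number of barcodes holding 2 or all 3 of Csf2, Hbegf and Pdgfa in the 6 h library, with the expectation set within bins of total UMIs and exact 95% Poisson intervals; colours mark all endothelial barcodes, those outside the Csf2-led cluster, gCap-like cells and the cluster itself, and the dotted line is 1. Over all barcodes the 3 genes together reach 8.43, while inside the cluster they stand at 1.29. These ratios have different ceilings. Inside the cluster, 63 barcodes held Csf2 and 37.1 were expected with all 3, against 108 and 6.28 over all barcodes.

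The 53 barcodes were somewhat deeper than the rest, with a median of 10250 against 8026 UMIs, and 7.55% of them were marked as doublets against 8.87%. RNA of other cell types was found in 50.9% of them and in 38.6% of the rest. Platelet markers summed to 390 against 180 CPM, leukocyte markers to 85.1 against 150 CPM and melanoma markers to 22.2 against 35.5 CPM. The platelet sum came largely from the 3 barcodes of mixed clusters, with 122, 30 and 18 platelet marker UMIs. At least 2 platelet marker UMIs were in 22.6% of the 53 and 11.9% of the rest. At least 2 leukocyte marker UMIs were in 15.1% against 9.24% of barcodes and at least 2 mesenchymal ones in 18.9% against 7.83%, and Ptprc was at 0 in all 53. With doublets left out the ratio for all 3 genes was 9.18, and with all barcodes holding other RNA left out it was 9.68. The part of RNA of single other cell types was not tested.

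Clusters were named by marker scores for general capillary (gCap), aerocyte (aCap, the large cells of gas exchange), artery, vein and lymphatic (LEC) cells. A score of at least 1 was needed, but only of at least 0 for gCap. That name went to clusters not already called mixed, low-UMI or another class. Members differed in where they were found. Among the named classes, Pdgfb was highest in aCap-like cells, at 397 (387 to 407) CPM in the control, 437 at 6 h and 532 at 30 h, followed by gCap-like cells with 218, 238 and 290 CPM. Artery-like cells (134, 152 and 155 CPM) and vein-like cells (103, 96.5 and 129 CPM) held less, and LEC-like cells least (18.5, 16.1 and 39.2 CPM). Csf1 showed the opposite order of the 2 capillary classes, with 99.3, 115 and 45.7 CPM in gCap-like and 22.5, 34.2 and 17.2 CPM in aCap-like cells. It was 119, 147 and 67.8 CPM in artery-like cells, whose control interval (107 to 133) lies above that of gCap-like cells (96.7 to 102). The 30 h library was lower in Csf1 than the control in gCap-like, aCap-like, artery-like and vein-like cells, with log2 ratios of −1.12, −0.39, −0.81 and −0.95. In LEC-like cells, with 13, 4 and 10 Csf1 UMIs, the intervals overlapped.

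Hbegf was nearly absent from aCap-like cells, at 4.47, 8.09 and 5.02 CPM, and from LEC-like cells, with 0, 1 and 0 UMIs. It was 29.4, 37.9 and 35.6 CPM in gCap-like, 35.9, 45.8 and 30.2 CPM in artery-like and 26.9, 28.1 and 15.9 CPM in vein-like cells. Between the 6 h library and the control, Hbegf differed by a log2 ratio of 0.37 (0.27 to 0.47) in gCap-like and 0.86 (0.40 to 1.32) in aCap-like cells, while the intervals in artery-like and vein-like cells included 0. Empty droplets held 36.1 CPM of Hbegf at 6 h and 23.4 CPM in the control. The part of such RNA in these differences was not tested. Pdgfa was more even across classes. It was 24.4, 36.3 and 22.4 CPM in gCap-like, 14.1, 25.1 and 14.6 CPM in aCap-like, 22.5, 41.2 and 30.0 CPM in vein-like and 24.0, 26.9 and 23.5 CPM in artery-like cells. LEC-like cells held 40.3 (25.8 to 60.0), 46.0 and 71.0 CPM, above gCap-like cells in the control and 30 h libraries by non-overlapping intervals. At 6 h Pdgfa was higher than in the control by log2 ratios of 0.57, 0.83 and 0.87 in gCap-like, aCap-like and vein-like cells, and the artery-like interval included 0. The 6 h levels of these classes lay below the 58.1 CPM of Pdgfa in empty droplets (26.5 CPM in the control). The part of such RNA in the class values was not tested. Csf2 outside its cluster was scattered, with 25 UMIs in 24 gCap-like and 8 UMIs in 6 aCap-like barcodes at 6 h. In gCap-like cells this was 12.7-fold above the control (25 against 2 UMIs, log2 ratio 3.67, 1.66 to 6.79), and its 0.478 CPM lay below the 14.5 CPM of empty droplets.

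The capillary classes were not made of the same clusters in each library. Of the aCap-like clusters, that led by Ednrb, Apln and AW112010 held 1159 barcodes of the 30 h library, 7 of the 6 h library and 2 of the control, so that the 30 h values of aCap-like cells came mainly from another cluster than those of the control. A cluster led by Cdk8, Cmss1 and Cxcl12 held 4898 barcodes of the 30 h library and 10 of the control, counted over all barcodes within the limits on genes and mitochondrial UMIs. The control and 6 h cells lay mainly in 3 others, led by Lpl, by Gm26802 and Socs3, and by Ifit1, and 1518 endothelial barcodes of the 6 h library in a further cluster led by Atf3. This Atf3-led cluster held 68 endothelial barcodes in the control. At 6 h it held 6 Csf2 UMIs in 6 barcodes, 54.3 CPM of Hbegf and 42.7 CPM of Pdgfa.

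**Figure D5:**
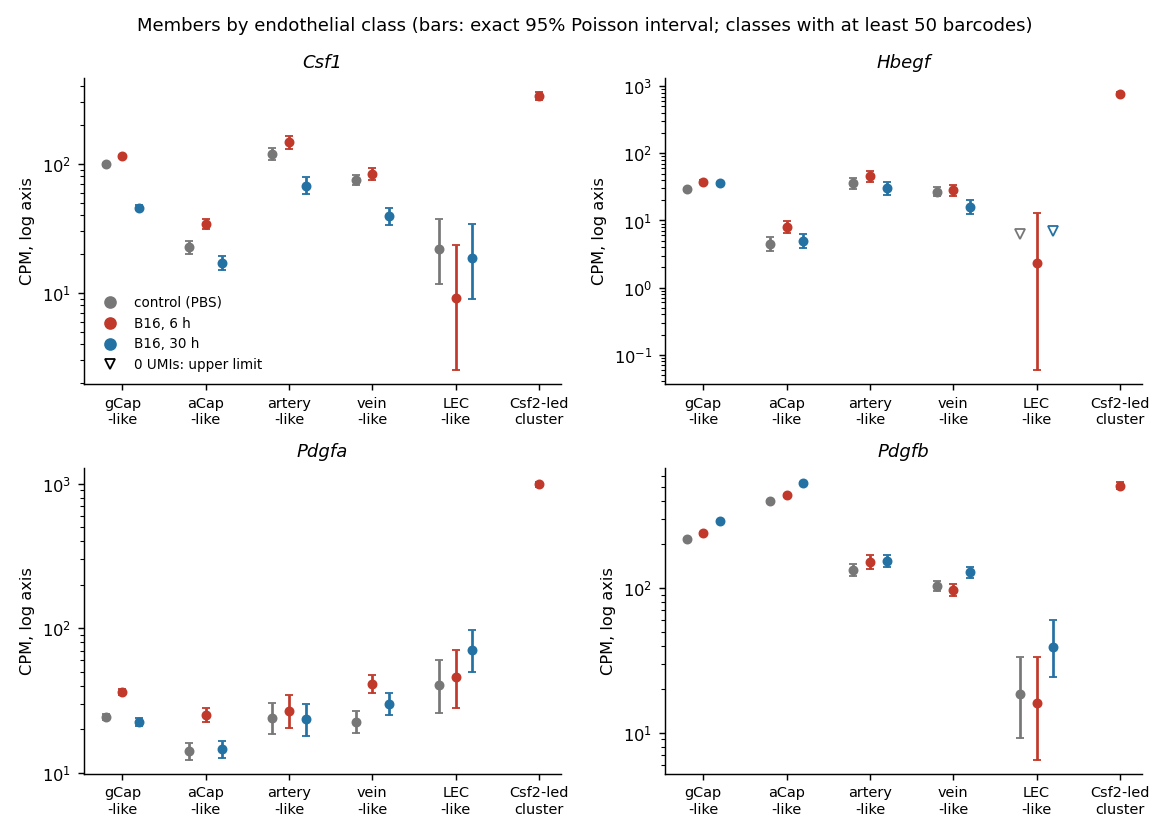
Levels of Csf1, Hbegf, Pdgfa and Pdgfb (CPM, log axes) in endothelial classes with at least 50 barcodes in the control, 6 h and 30 h libraries, with exact 95% Poisson intervals; the Csf2-led cluster is plotted for the 6 h library only and open triangles are upper limits of 0 UMIs. Hbegf in aCap-like cells lies between 4.47 and 8.09 CPM, and Pdgfb there between 397 and 532 CPM.

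The genes most often detected with the 3 were ranked by the same ratio of observed to expected barcodes at 6 h, among genes in at least 1% of endothelial barcodes. The 10 genes found most with Csf2, of 6065 ranked, were Adamts4 (15.9, 10.7 to 22.7), Bean1, Sox9, Fosl1, Myc, Noct, Ppm1j, Tmem51, Tuba1c and Tubb6 (7.42). Adamts4 cleaves aggrecan-type proteoglycans, Sox9 and Myc are transcription factors, Fosl1 is a subunit of AP-1, and Tuba1c and Tubb6 are tubulins. For Hbegf the list opened with Csf2 (2.86), Adamts4 (2.74), Bean1 (2.70) and Fosl1 (2.64), and for Pdgfa with Csf2 (2.54), Bean1 (2.46) and Fosl1 (2.29). Adamts4, Bean1, Fosl1, Myc, Ppm1j, Sox9 and Tuba1c stood in all 3 lists, 7 of 10 in each. Csf2, Hbegf and Pdgfa were chosen by their level in 1 rare population, so shared genes follow from that choice and nothing is read from the overlap. The lists depend on the limit of 1%: with genes in at least 5% of barcodes, 2 of the 10 genes remained for Csf2 and none for Hbegf or Pdgfa. Over all ranked genes the median ratio was 0.988 with Csf2, 0.993 with Hbegf and 0.997 with Pdgfa. Among the 6065 ranked genes, Hbegf ranked 77 and Pdgfa 106 with Csf2, and Csf1 ranked 405. The highest possible ratio falls as a gene is seen in more barcodes. Hbegf (19.7%), Pdgfa (22.7%) and Csf1 (44.0%) could not have reached the ratios of the top 10, so these ranks also reflect frequency. The other libraries did not serve to choose these genes. For Csf2, with 8 barcodes in the control and 3 at 30 h, the ratios rested on at most 2 shared barcodes, and intervals lay above 1 for Sox9 (24.4, 2.96 to 88.2), Fosl1, Noct and Tuba1c in the control and for Noct at 30 h. Several of the 8 control barcodes lay in epithelial or lymphoid clusters, with up to 583 UMIs of epithelial markers. For Hbegf, the ratios of the listed genes with at least 1 shared barcode ran from 0.497 (Sox9) to 1.94 (Myoz3) in the control and from 0.241 (Sox9) to 1.60 (Ppm1j) at 30 h. Their intervals lay above 1 for Tuba1c in the control (1.37, 1.03 to 1.79) and for Ppm1j at 30 h (1.23 to 2.03), below 1 for Sox9 at 30 h, and included 1 for the rest. For Pdgfa, the control intervals lay above 1 for Vtn (2.85), Pvt1 (2.31), Adamts4 (2.08, 1.17 to 3.44), Myc (1.76) and Tuba1c (1.51), and those of the others included 1. At 30 h they lay above 1 for Adamts4 (1.92), Vtn (1.81) and Tuba1c (1.57) and below 1 for Sox9 (0.438).

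The receptors of the members were counted in the same barcodes. Several are known from leukocytes or mesenchymal cells, and their UMIs in barcodes with RNA of such cells were not set apart. At 6 h, Csf2rb was seen in 46 endothelial and 34 of the 345 other barcodes, Csf3r in 24 and 31, Csf1r in 56 and 28, Pdgfra in 240 and 32 and Pdgfrb in 403 and 25. Of 15 listed receptor genes, 13 had enough UMIs. This list too was chosen with earlier results of these data known, so nothing is read from the counts. At 6 h, 2 were higher by more than 1.5-fold (4.43% of all genes were) and 1 was lower (3.66% of all genes), and the median log2 ratio was 0.22. The higher ones were Csf2rb, the shared beta chain of the GM-CSF receptor (94 against 57 UMIs), and Csf3r, the G-CSF receptor (66 against 31 UMIs), which is also a marker of neutrophils, and Erbb3 was lower (28 against 45 UMIs, ratio 0.647, 0.389 to 1.06, an interval that includes 1). At 30 h, 2 were higher and 1 lower, beside 8.99% and 7.86% of all genes. Csf2ra, the GM-CSF receptor alpha chain, reached 218 UMIs against 111 in the control, Csf3r 42 against 31 (ratio 1.51, 0.927 to 2.49, which includes 1), and Egfr, the receptor of Hbegf and Areg, was lower with 48 against 88. Csf1r, the M-CSF receptor, counted 66, 85 and 65 UMIs and Pdgfrb 823, 691 and 737. Pdgfra counted 567, 542 and 352 UMIs and was lower at 30 h than in the control (4.32 against 6.24 CPM, log2 ratio −0.53, −0.73 to −0.34). Lifr, the LIF receptor, was at 295, 212 and 228 CPM, Il6st at 216, 251 and 183 CPM, and Osmr, the oncostatin M receptor, at 67.1, 98.0 and 45.8 CPM. Il6ra, which ECs need for classical IL-6 signalling, was at 2.21, 2.60 and 1.53 CPM.

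Related ligands were read from lists chosen with earlier results of these data known, so nothing is read from their counts. The counts stand beside 4.43% of all genes higher and 3.66% lower past 1.5-fold at 6 h, and 8.99% and 7.86% at 30 h. Of 4 tested ligands of the colony-stimulating and stem cell factor group, Il34, the second ligand of Csf1r, was lower at 6 h (2.00 against 3.09 CPM) and at 30 h (1.73 CPM), and Flt3l was higher at 30 h (643 against 452 UMIs). Of 3 other members of the interleukin-6 family, none passed at 6 h and Il27 was higher at 30 h (80 against 32 UMIs). Among 5 other EGF family ligands, Tgfa (147 against 98 UMIs) and Nrg1 (98 against 46 UMIs) were higher at 6 h (4.43% of all genes were) and Nrg3 (83 against 49 UMIs) at 30 h (8.99% of all genes). Pdgfd, the only other PDGF chain with enough UMIs, stood at 0.714 and 0.889 times the control. In a list of 19 further cytokines and growth factors of ECs, 4 were higher at 6 h (4.43% of all genes were) and none lower. These were the inflammatory cytokines Il1b (725 against 142 UMIs, in 109 and 13 barcodes) and Tnf (70 against 38 UMIs), Vegfa (367 against 192 CPM) and Inhbb (28.3 against 4.01 CPM). Il1b was also seen in 33 of the 345 non-endothelial barcodes at 6 h and leads a neutrophil-marked cluster with S100a8 and S100a9, and barcodes with leukocyte RNA were more frequent among ECs at 6 h (9.27% against 6.98%). The part of leukocyte RNA in the Il1b value was not tested. At 30 h, Il1a, Inhbb, Igf1, Fgf2 and Cxcl12 were higher and Hgf, Bmp4 and Edn1 lower (8.99% and 7.86% of all genes were higher and lower), with Cxcl12 at 967 against 274 CPM. Of 8 genes of ligand shedding and processing, which include the inactive rhomboids Rhbdf1 and Rhbdf2 and the sheddase inhibitor Timp3, none passed 1.5-fold at 6 h or 30 h. Adam17, the main sheddase of Hbegf and Areg, stood at 47.6, 58.4 and 49.8 CPM, and Furin, which cuts PDGF precursors, at 64.6, 82.3 and 55.9 CPM. The largest difference of the 8 at 6 h was 1.40-fold, in Rhbdf1.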

How the data were processed

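The deposited matrices held UMI counts per gene and barcode of 3 unfiltered libraries. The authors obtained the counts with Cell Ranger 7.2.0 on mm10, per the file headers and processing notes; the methods text gives an earlier release. For downstream work the notes name Seurat 4.4.0 and the methods a later version. The sources used here do not say if reads in introns entered the counts. The limits on genes and mitochondrial UMIs followed the study's methods; the minimum of Pecam1 and Cdh5 UMIs did not, since the study took ECs by cluster. No value was normalized before deposit, and CPM was computed here as a gene's UMIs per 1000000 UMIs of the same barcodes.

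Clustering used scanpy 1.11.5 and the Leiden method (leidenalg 0.10.2, resolution 1) on 2000 variable genes, 30 components and 15 neighbours, without members and listed response genes. Score limits for naming clusters were fixed only once the clusters were known. Doublets (Scrublet, 0.8% per 1000 barcodes) were marked and kept. Levels had exact Poisson intervals, ratios exact conditional binomial intervals, and shares Clopper-Pearson intervals (scipy 1.17.1). Expected co-detection was the sum over 10 depth bins of the product of detection shares. No p-value was computed. Groups came from the treatment in the labels.

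The 9 members and the gene lists were chosen with earlier results of these data known. Named genes were the members, the listed receptors, other ligands and processing genes past 1.5-fold against the control, the receptor of each member, and the 10 genes with the highest co-detection ratio with Csf2, Hbegf and Pdgfa among those in at least 1% of barcodes and at least 20 shared barcodes. On simulated Poisson counts of the 6 h against the control comparison, 95% intervals held the true ratio for 95.5% of 13849 unchanged genes and 88% of 50 genes changed 2-fold, and the limits of this check were widened after its first run. The intervals assume Poisson counts too, so this check does not cover UMIs gathered in few barcodes, as those of Csf2 were. Alternatives covered doublets, barcode limits, RNA of other cell types, scaling (median of ratios and TMM of edgeR 4.0.16), weights, free RNA, depth bins, thinning, cell class and filters.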

Additional observations from a re-analysis of the deposited data

Results flagged for a closer look

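Hbegf at 30 h differed in direction between classes. Against the control, its log2 ratio was 0.28 (0.18 to 0.38, counting error) in gCap-like cells and −0.76 (−1.19 to −0.35) in vein-like cells. The difference between the classes was not tested, and the gCap-like cells of the 2 libraries lay in different clusters.

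Droplets with 1 to 100 UMIs, which the comparisons did not use, held RNA of some members above the level in the control library and of others below it, such as Csf1 at 30 h (29.6 against 65.0 CPM). The following values stood above it with intervals that do not overlap. At 6 h, Csf2 stood there at 14.5 CPM (0 in the control), Hbegf at 36.1 CPM (23.4), Areg at 13.2 CPM (3.94) and Pdgfa at 58.1 CPM (26.5). At 30 h, Pdgfb stood at 218 CPM (168 in the control). Each library contributed 1 value, and the source of this RNA was not tested.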

How the results depend on the processing

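No paired analysis was possible because each group had 1 library. Of the values that describe Csf2, Hbegf and Pdgfa, their co-detection and the counts over all genes, those not named below stayed within the counting interval, or within 1.5 times for counts. Of the values of the other members and of classes under an alternative, 73 stayed, 13 moved by more and 3 turned.

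Direction turned for Csf2 at 30 h (log2 ratio 2.11) when barcodes with other RNA were left out, for Hbegf at 30 h (−0.00699) with at least 300 genes, and for Areg at 6 h with at least 300 genes (0.0827), without other RNA (0.0680) and in gCap-like cells alone (1.14). At 6 h, Csf2 moved to 8.95 without other RNA, a setting that left 1 Csf2 UMI in the control. It moved to 2.24 without its cluster and 4.34 as a mean over barcodes, and at 30 h to −2.06 with at least 300 genes. Hbegf at 6 h moved to 0.91 (at least 300 genes), 0.37 (gCap-like), 0.33 (without the cluster) and 0.93 (mean over barcodes), and at 30 h to 0.20 (without other RNA) and 0.28 (gCap-like). Pdgfa at 6 h moved to 1.14, 0.57, 0.54 and 1.255 under the same 4 settings, and to 1.41 without other RNA.

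Co-detection ratios are given for Csf2 with Hbegf, Csf2 with Pdgfa, Hbegf with Pdgfa and all 3 in turn. They were 7.75, 6.19, 2.58 and 74.5 after thinning, 9.89, 8.51, 2.98 and 78.1 with at least 2 UMIs per gene, 0.859, 0.823, 1.02 and 0 in gCap-like cells, 1.33, 1.16, 1.11 and 2.15 without the Csf2-led cluster, 1.14, 1.13, 1.05 and 1.29 within it, and 1.15, 1.14, 1.05 and 1.34 in bins of class and depth. The settings without and within the Csf2-led cluster were chosen after seeing the data.

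Genes past the fold at 6 h numbered 210 higher and 138 lower with a mean of at least 5 CPM, 2414 and 2280 with 1 UMI in each library, and 194 and 126 at 2-fold, against 656 and 543. At 30 h they numbered 493 and 510, 3171 and 3069, and 430 and 362, against 1333 and 1165. With genes in at least 5% of barcodes, 2 of the 10 genes remained in the list of Csf2 and 0 in those of Hbegf and Pdgfa, because most listed genes lay below that limit. The causes of the other changes were not tested. Without a replicate library, none of these intervals covers differences between mice, sorts or library preparations.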
